A study of Arabidopsis thaliana with 6 samples.

Results

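The genes described here were highest in 35S::RSL4 roots, lowest in rsl4-1 roots and intermediate in Col-0 roots of Arabidopsis thaliana. They are 81 of the 22746 probe sets on the ATH1 array, counted without its AFFX controls. They were selected on measured signals of all 6 arrays. Both 35S::RSL4 arrays had to lie above both Col-0 arrays, and both rsl4-1 arrays below both Col-0 arrays. The mean log2 signal of each line had to differ from that of Col-0 by at least 0.4, and the mean signal in 35S::RSL4 had to reach 40.

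RSL4 belongs to the basic helix-loop-helix family of transcription factors and drives the elongation of root hairs, the tubular outgrowths of single epidermal cells that take up water and nutrients. A root hair grows at its tip, where vesicles deliver wall material along actin filaments while kinases and calcium keep the growing zone in place. In the wild type RSL4 acts in hair cells around the start of hair growth.

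The series had 2 arrays of 35S::RSL4, 2 of the rsl4-1 mutant and 2 of wild-type Col-0, all in the Col-0 background. The 35S promoter of a plant virus is active in most tissues, so in 35S::RSL4 the factor is not limited to hair cells. The labels give a T-DNA knock-out as the genetic variation of rsl4-1, and the same entry for 35S::RSL4, so the genotypes were taken from the titles. The annotation names no probe set for RSL4, so its own transcript was not analysed here. Roots were taken from plants at growth stage 3.2, grown on upright plates in constant light at 25 °C. All groups had medium of pH 5.7 with 1% sucrose. The Col-0 labels name 2 days of cold treatment of the seeds and later 4 days, while those of both lines name only 4 days. How many lines or plants each sample holds, and whether the 2 samples of a genotype were grown separately, is not given in the sources used here, so the spread between them may be technical. Roots mix cell types, so more cells of a type and more RNA per cell cannot be told apart.

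Before any gene family was left out, 103 probe sets met the criteria on the arrays. Of these, 22 were set aside. They were a single unnamed probe set, 10 probe sets from a long stretch of chromosome 1 that holds RSL4, 4 extensins, 2 class III peroxidases and 2 genes of the CAP family of secreted proteins outside that stretch, and EXPA7, EXPA18 and XTH26. The 81 that remained are 0.774% of the 10461 probe sets that reached the signal minimum outside the excluded families. The annotation gives 1 gene for 25 of the 81 and several genes for 1, and lists none for 55. These 55 could not be screened by gene. Some may thus belong to the excluded families, to the chromosome 1 stretch or to a stretch of chromosome 3 that was also excluded.

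Values below are array signals summarised with MAS5 and scaled to a common mean, and the 2 values of a genotype are given as replicate 1 and replicate 2. A signal is called dim where it was at or below the 40th percentile of its array, which lay between 20.3 and 22.4. Of the 81, 20 were dim on both rsl4-1 arrays, 1 of them was dim also on both Col-0 arrays, and none was dim on both 35S::RSL4 arrays. For a gene that was dim on both rsl4-1 arrays only a lower bound of the fold is given, and its log2 difference rests on dim values.

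Across the 81, the log2 difference between 35S::RSL4 and Col-0 had a median of 0.74 and ran from 0.41 to 1.40. The log2 difference between rsl4-1 and Col-0 had a median of -0.87 and ran from -2.98 to -0.40. With dim signals raised to the 40th percentile the medians were 0.74 and -0.71. Over all 14170 probe sets bright enough to be tested, the medians were -0.06 and -0.03. These sizes follow in part from the selection and are a description. With dim signals raised in this way, the signal was at least 2-fold higher in 35S::RSL4 for 18 of the 81, at least 2-fold lower in rsl4-1 for 19, and both for 8. On the signals as deposited 32 were at least 2-fold lower in rsl4-1, and 13 of these were dim on both rsl4-1 arrays.

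**Figure D1:**
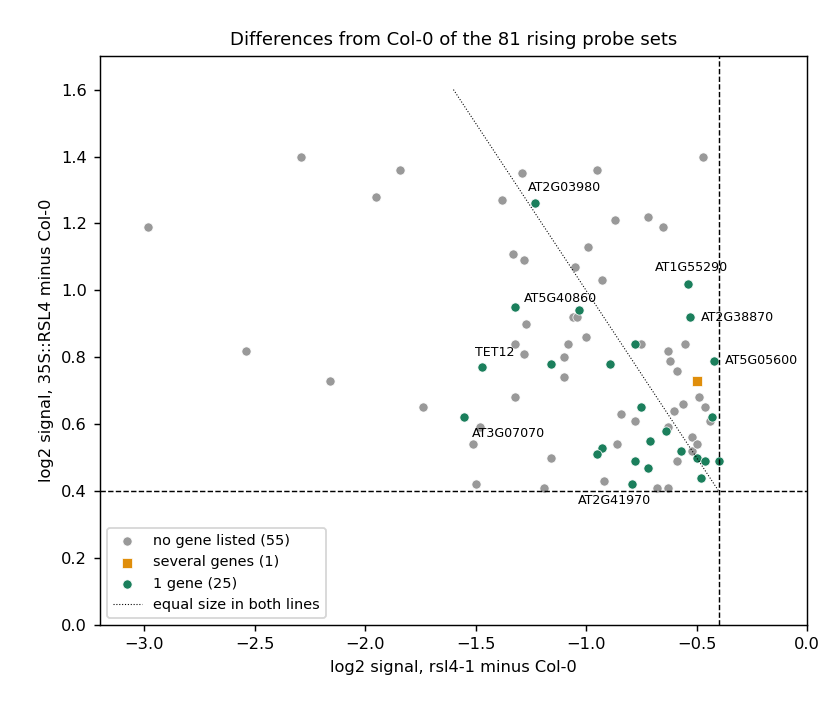
Each point is 1 of the 81 probe sets, placed by the log2 difference of rsl4-1 from Col-0 (x axis) and of 35S::RSL4 from Col-0 (y axis). Colours mark whether the annotation gives 1 gene (25), several (1) or none (55), dashed lines mark the selection minimum of 0.4 on each axis, and the dotted line marks equal sizes. The differences in rsl4-1 reach -2.98 while those in 35S::RSL4 end at 1.40, the lowest resting in part on dim signals. The difference in rsl4-1 was the larger one for 50 of the 81 as plotted, and for 40 with dim signals raised to the 40th percentile.

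With 2 arrays per genotype, precision is limited. Arrays of the same genotype differed over the 81 by a median log2 difference of 0.22 in 35S::RSL4, 0.24 in rsl4-1 and 0.13 in Col-0, against 0.18, 0.16 and 0.15 over all tested probe sets. In a limma fit across the 14170 probe sets, 54 of the 81 passed an adjusted p of 0.05 as higher in 35S::RSL4 than in Col-0, and 3.39% of all tested probe sets did. As lower in rsl4-1 than in Col-0, 55 of the 81 passed, and 2.15% of all tested probe sets did. Both differences passed for 39 of the 81 and neither for 11. The 81 were chosen on these same differences, so the shares carry no further information. The selection also required both Col-0 arrays to lie between the lines, so the spread of Col-0 over the 81 was bounded in advance.

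**Figure D2:**
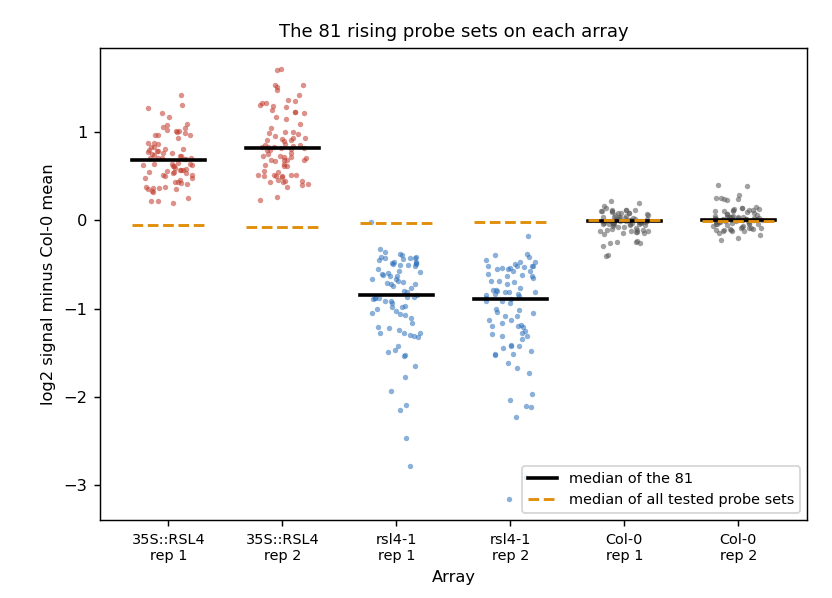
Points show the 81 probe sets on each of the 6 arrays as log2 signal minus the Col-0 mean of the same probe set. Solid lines are their medians, which were 0.69 and 0.82 on the 35S::RSL4 arrays, -0.85 and -0.89 on the rsl4-1 arrays and near 0 on the Col-0 arrays; dashed lines are medians of all 14170 tested probe sets, which lay between -0.078 and 0.004.

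Protein kinase genes were among the 25 probe sets with 1 gene. AT2G41970 encodes MARIS, a receptor-like cytoplasmic kinase that keeps the wall of pollen tubes and root hairs intact during tip growth. Its signal was 161 and 176 in 35S::RSL4, 73.5 and 71.7 in rsl4-1, and 127 and 124 in Col-0. The log2 difference from Col-0 was 0.42 in 35S::RSL4 and -0.79 in rsl4-1, and without 35S::RSL4 replicate 2 the gene no longer met the criteria. AT3G07070, also of the protein kinase family, had signals of 158 and 178 in 35S::RSL4, 40.5 and 34.2 in rsl4-1, and 105 and 113 in Col-0. Of the 16 of the 25 that were bright on every array it had the largest difference in rsl4-1, with a log2 difference of -1.55 and a 2.93-fold lower signal, and was 1.54-fold higher in 35S::RSL4.

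A pair of genes encode proteins that bind the cytoskeleton. PLIM2b encodes a LIM domain protein that binds and bundles actin filaments. Its signal was 266 and 271 in 35S::RSL4, 133 and 135 in rsl4-1, and 203 and 178 in Col-0, a log2 difference of 0.50 in 35S::RSL4 and -0.50 in rsl4-1. SP1L4 encodes a SPIRAL1-like protein, of a family that binds microtubules. Its signal was 254 and 247 in 35S::RSL4, 88.4 and 93.5 in rsl4-1, and 170 and 176 in Col-0. SP1L4 was 1.45-fold higher in 35S::RSL4 and 1.91-fold lower in rsl4-1 than in Col-0, and its 2 arrays of a genotype lay close together throughout.

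A pectin methylesterase gene and a glycosyltransferase gene, of the cell wall and the secretory pathway, were also among the 25. AT5G04960 encodes a pectin methylesterase, an enzyme that removes methyl groups from wall pectin. Its signal was 435 and 644 in 35S::RSL4, 230 and 211 in rsl4-1, and 354 and 403 in Col-0. The 35S::RSL4 arrays differed widely, and without 35S::RSL4 replicate 2 or Col-0 replicate 1 the gene no longer met the criteria. AT3G18170 belongs to a glycosyltransferase family whose members add sugars to wall polysaccharides or glycoproteins. It had 142 and 104 in 35S::RSL4, 66.7 and 59.7 in rsl4-1, and 84.4 and 89.1 in Col-0. Its log2 differences of 0.49 and -0.46 lay near the minimum, and without 35S::RSL4 replicate 1 or rsl4-1 replicate 2 it did not meet the criteria.

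TET12 encodes a tetraspanin, a small protein with several membrane spans. Its signal was 43.7 and 48.9 in 35S::RSL4, 10.8 and 8.84 in rsl4-1, and 27.8 and 26.3 in Col-0. Both rsl4-1 values were dim, so the signal was at least 2.12-fold higher in 35S::RSL4 than in rsl4-1 and at least 1.24-fold lower in rsl4-1 than in Col-0.

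A transcription factor gene was also among the 25, which were not all classed by role. HYH encodes a bZIP factor closely related to HY5, a promoter of light responses. Its signal was 92.5 and 102 in 35S::RSL4, 47.6 and 54.8 in rsl4-1, and 60.3 and 84.6 in Col-0. The Col-0 arrays stood further apart than either line's, and HYH failed the criteria without 35S::RSL4 replicate 2, without rsl4-1 replicate 1 and without either Col-0 array.

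Several genes encode enzymes of small-molecule or lipid metabolism. AT1G55290 is F6'H2, a 2-oxoglutarate-dependent oxygenase of coumarin synthesis. Its signal was 61.3 and 92.1 in 35S::RSL4, 24.2 and 26.8 in rsl4-1, and 43.3 and 31.7 in Col-0, and it did not meet the criteria without Col-0 replicate 1. AT5G05600 encodes another 2-oxoglutarate-dependent oxygenase, which hydroxylates jasmonic acid. It had 154 and 156 in 35S::RSL4, 56.6 and 78.9 in rsl4-1, and 88.6 and 90.2 in Col-0. With a log2 difference of -0.42 in rsl4-1 it lay just inside the minimum, and it left the set with quantile normalization, with median centring or without rsl4-1 replicate 1. AT2G03980 encodes a GDSL-type lipase or esterase, and had 47.7 and 46.8 in 35S::RSL4, 8.1 and 8.65 in rsl4-1, and 16.5 and 23.4 in Col-0. AT2G03980 was dim on both rsl4-1 arrays and 1 Col-0 array; with that Col-0 value raised to the 40th percentile it was 2.06-fold higher in 35S::RSL4 than in Col-0. On the same basis, the signal in 35S::RSL4 was at least 2.17-fold that in rsl4-1, and no fold is given for rsl4-1 against Col-0.

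AT2G38870, of a family of small proteinase inhibitors, had 360 and 257 in 35S::RSL4, 119 and 103 in rsl4-1, and 172 and 149 in Col-0. Its log2 difference was 0.92 in 35S::RSL4 and -0.53 in rsl4-1.

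**Figure D3:**
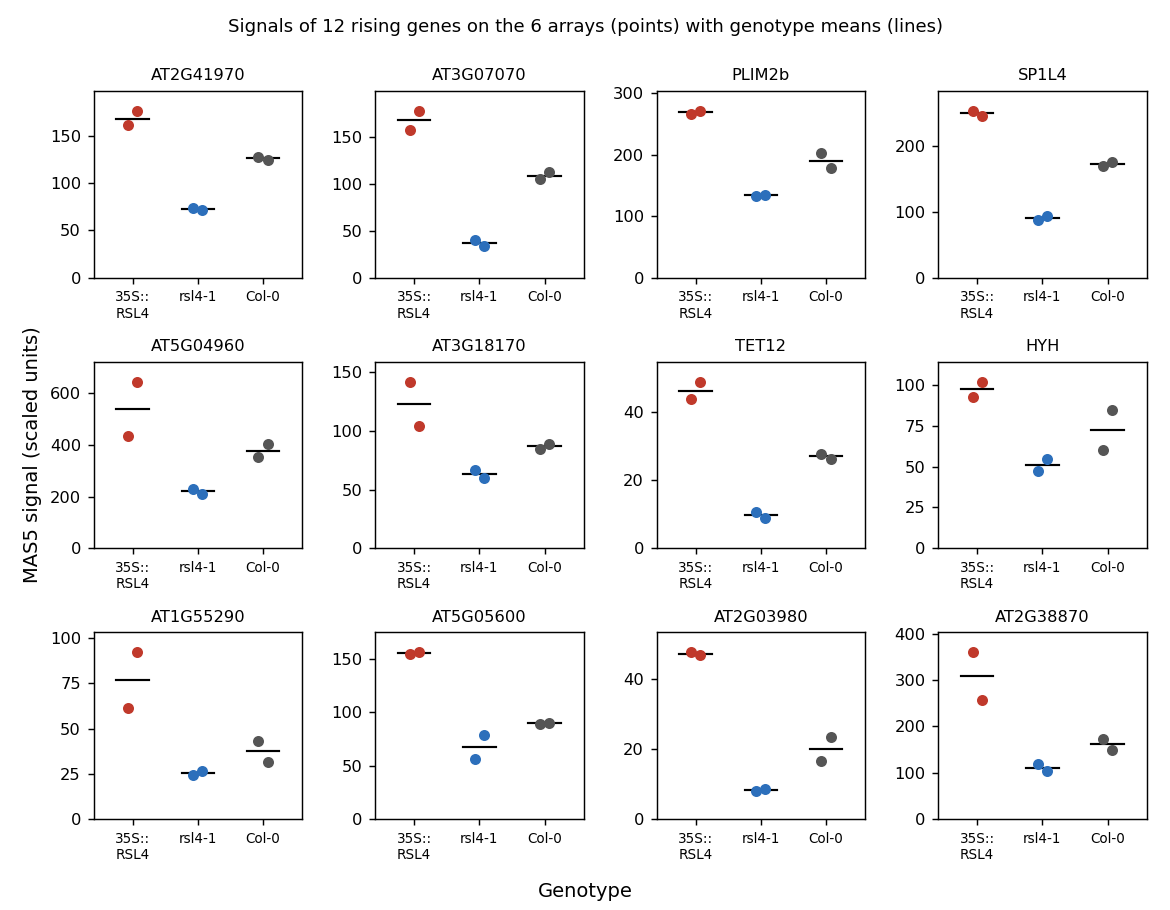
MAS5 signals (y axis, scaled units, each panel from 0) of 12 of the 81 genes, those whose protein family is described in the text. Points are single arrays of 35S::RSL4, rsl4-1 and Col-0 and lines are genotype means. In every panel the 35S::RSL4 points lie above the Col-0 points and the rsl4-1 points below them, and HYH, AT5G05600, AT1G55290, AT5G04960, AT3G18170 and AT2G38870 have a gap smaller than the spread within a genotype beside it.

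The other 13 probe sets with 1 gene are given by locus, without a role. AT1G05340 had 588 and 591 in 35S::RSL4, 181 and 203 in rsl4-1, and 357 and 305 in Col-0. AT2G30930 had 1363 and 1355 in 35S::RSL4, 638 and 671 in rsl4-1, and 976 and 797 in Col-0. Of these, AT1G05340 met the criteria whichever array was left out, while AT2G30930 did not without rsl4-1 replicate 1 or Col-0 replicate 1, nor with median centring.

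AT5G19800 had 197 and 215 in 35S::RSL4, 51.8 and 53.1 in rsl4-1, and 115 and 99.8 in Col-0. It was 1.92-fold higher in 35S::RSL4 and 2.04-fold lower in rsl4-1 than in Col-0, so that both differences were of similar size. AT2G34910 had 186 and 210 in 35S::RSL4, 86.9 and 77.9 in rsl4-1, and 127 and 143 in Col-0. AT3G12540 had 99.6 and 123 in 35S::RSL4, 38.4 and 45.3 in rsl4-1, and 73.2 and 67.4 in Col-0. The genotypes of these 3 genes were separated by more than the arrays of a genotype differed.

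AT5G40860 had 72.0 and 69.9 in 35S::RSL4, 14.9 and 14.5 in rsl4-1, and 34.2 and 39.5 in Col-0, and was at least 3.26-fold higher in 35S::RSL4 than in rsl4-1. AT1G59850 had 69.4 and 66.4 in 35S::RSL4, 21.5 and 14.5 in rsl4-1, and 39.2 and 39.7 in Col-0, and was at least 3.12-fold higher in 35S::RSL4 than in rsl4-1. Both were dim on the 2 rsl4-1 arrays alone. AT3G52460 had 58.4 and 58.0 in 35S::RSL4, 20.7 and 21.6 in rsl4-1, and 40.6 and 40.9 in Col-0, with nearly equal values within each genotype. AT5G24880 had 43.6 and 59.1 in 35S::RSL4, 15.4 and 16.5 in rsl4-1, and 30.3 and 28.8 in Col-0. AT3G52460 and AT5G24880, both dim in rsl4-1, were at least 2.67-fold and 2.33-fold higher in 35S::RSL4 than in rsl4-1.

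The remaining 4 loci had the lowest signals or the narrowest gaps. AT5G43230 had 47.0 and 39.1 in 35S::RSL4, 21.4 and 15.9 in rsl4-1, and 28.8 and 28.5 in Col-0. AT3G51540 had 41.4 and 43.6 in 35S::RSL4, 19.8 and 17.6 in rsl4-1, and 31.5 and 29.9 in Col-0. AT5G43230 and AT3G51540, both dim in rsl4-1, were at least 1.97-fold and 1.95-fold higher in 35S::RSL4 than in rsl4-1. AT5G36270, annotated as a transcribed pseudogene, had 69.3 and 105 in 35S::RSL4, 43.4 and 36.8 in rsl4-1, and 59.7 and 59.1 in Col-0. AT1G52660 had 43.4 and 59.9 in 35S::RSL4, 35.8 and 21.0 in rsl4-1, and 36.4 and 36.1 in Col-0. The higher rsl4-1 array of AT1G52660 almost reached Col-0. AT5G43230 left the set without 35S::RSL4 replicate 1, AT5G36270 without 35S::RSL4 replicate 2, and AT1G52660 under both other scalings and without 35S::RSL4 replicate 2, rsl4-1 replicate 2 or Col-0 replicate 1.

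**Figure D4:**
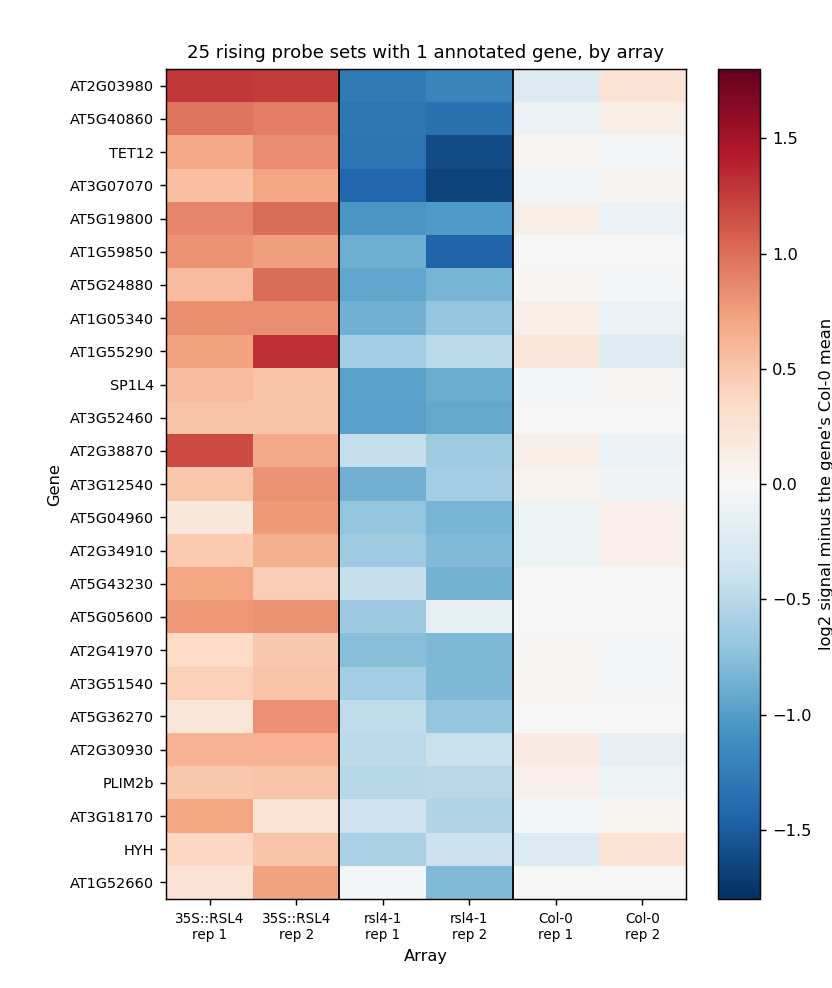
Rows are the 25 probe sets with 1 annotated gene, from the largest to the smallest difference between 35S::RSL4 and rsl4-1. Columns are the 6 arrays, and colour shows log2 signal minus the Col-0 mean of the row (red higher, blue lower). The 35S::RSL4 columns are red and the rsl4-1 columns blue, with AT1G52660 in rsl4-1 replicate 1 almost without colour.

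The 25 differed in where Col-0 stood between the lines. The position is given as the share of the log2 difference between 35S::RSL4 and rsl4-1 that lay between Col-0 and rsl4-1, for genes bright on all arrays. It was 71.3% for AT3G07070, 65.2% for AT2G41970, 63.7% for SP1L4 and 61.3% for AT5G04960, for which Col-0 stood closer to 35S::RSL4. It was 34.6% for AT5G05600, 34.7% for AT1G55290 and 36.6% for AT2G38870, for which Col-0 stood closer to rsl4-1. For PLIM2b it was 50.2%. Over the 55 of the 81 probe sets that were bright on every array, the share had a median of 52.1% and ran from 25.3% to 71.3%. Both differences that make up the share had to reach the selection minimum, so its possible range was bounded in advance. The bounds were narrowest for genes with a small difference between 35S::RSL4 and rsl4-1, such as PLIM2b and AT5G05600. Keeping to probe sets bright on every array also shapes the share, so its median and range are a description.

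The 55 probe sets with no listed gene held the largest differences. The examples that follow were chosen after their values were seen. The probe set 247871_at had 361 and 454 in 35S::RSL4, 25.6 and 19.8 in rsl4-1, and 175 and 179 in Col-0, and was 7.87-fold lower in rsl4-1 and 2.29-fold higher in 35S::RSL4 than in Col-0. 247914_at had 195 and 313 in 35S::RSL4, 31.2 and 18.5 in rsl4-1, and 125 and 155 in Col-0. Both were dim in rsl4-1 replicate 2 and not in replicate 1. 256352_at had 458 and 658 in 35S::RSL4, 66.3 and 52.2 in rsl4-1, and 220 and 234 in Col-0. 249934_at had 416 and 512 in 35S::RSL4, 57.1 and 43.7 in rsl4-1, and 164 and 196 in Col-0. These 2 were bright on every array, with log2 differences between 35S::RSL4 and rsl4-1 of 3.22 and 3.21.

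At high signal, 251226_at had 2149 and 1966 in 35S::RSL4, 587 and 515 in rsl4-1, and 1179 and 1185 in Col-0. The probe set 254044_at had 1830 and 2038 in 35S::RSL4, 564 and 501 in rsl4-1, and 1053 and 1073 in Col-0. 251226_at was 2.15-fold lower in rsl4-1 and 1.74-fold higher in 35S::RSL4 than in Col-0. For 254044_at these folds were 2.0 and 1.82. 250778_at was uneven, with 645 and 984 in 35S::RSL4, 226 and 209 in rsl4-1, and 297 and 307 in Col-0, so that 25.3% of its log2 difference lay between Col-0 and rsl4-1. The 55 had a median log2 difference of 1.90 between 35S::RSL4 and rsl4-1, and the 25 with 1 gene a median of 1.41, both including dim rsl4-1 signals.

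At the edge of the selection, AT1G52660, AT5G05600 and AT2G41970 were the 3 named genes with the smallest lesser difference, at -0.403 and -0.42 in rsl4-1 and 0.423 in 35S::RSL4. Just outside were AT2G45750 (-0.397 in rsl4-1), AT4G31250 (-0.37 in rsl4-1) and AT1G04700 (0.369 in 35S::RSL4). In all, 22 of the 81 had a lesser difference within 0.1 of the minimum.

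Gene span, gene type and chromosome were compared with the 5197 probe sets of 1 gene that reached the signal minimum outside the exclusions. The 25 are part of the 5197. Chromosome was in part used in the selection. Loci in a stretch of chromosome 1 and a stretch of chromosome 3 were left out of both the 25 and the 5197. The RefSeq gene span had a median of 1629 bp for the 25 and 2344 bp for the 5197. Of the 25, 1 was a pseudogene (4.0%), against 0.173% of the 5197. By chromosome, 5, 5, 6, 0 and 9 of the 25 lay on chromosomes 1 to 5, against 19.6%, 16.2%, 21.6%, 15.8% and 26.8% of the 5197. The 0 on chromosome 4 holds for the 25 alone, since the 55 members with no listed gene have no locus and could not be placed. It also depends on the exclusions, since AT4G30320, AT4G25790, AT4G08410 and XTH26 met the criteria and were set aside. No 2 of the 25 were neighbouring loci, and the closest, AT5G04960 and AT5G05600, were 74 annotated loci apart. These differences were not tested.

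Of 49 loci listed as root hair regulators, tip growth machinery or root hair specific genes, 2 had a tested probe set with 1 gene. Neither was among the 81. The list of root hair specific genes had no probe set with 1 gene. The 55 members with no listed gene could not be matched to these lists, so some may be listed root hair genes. FER, which encodes the receptor kinase FERONIA of root hair growth, had 569 and 584 in 35S::RSL4, 578 and 618 in rsl4-1, and 590 and 545 in Col-0. FER did not pass limma in 35S::RSL4 (log2 difference 0.02, adjusted p = 0.94) or in rsl4-1 (0.08, adjusted p = 0.82). Of the 2 tested loci, 0 were called in either line, and 0 had an unadjusted p below 0.05. AT2G14760, also on these lists, was too dim to be tested.

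Of 40 loci listed as markers of other cell types or as reference genes, 4 could be tested. The lists for non-hair epidermis, root cap, endodermis and vasculature had no probe set with 1 gene, so the labelled tissue was not checked with them. The reference gene GAPC2 and the cell division gene AUR1 did not pass in either line (limma adjusted p from 0.74 to 0.86). The summed signal of the shoot genes LHCB4.1 and RCA, which serve photosynthesis, lay at 250.7 to 256.7 in 35S::RSL4, 258.4 to 258.5 in rsl4-1, and 324.0 to 386.6 in Col-0. RCA had 128 and 130 in 35S::RSL4, 122 and 139 in rsl4-1, and 168 and 136 in Col-0, so rsl4-1 overlapped Col-0. RCA did not pass in either line (limma adjusted p = 0.39 and 0.54). LHCB4.1 had 129 and 121 in 35S::RSL4, 137 and 120 in rsl4-1, and 219 and 188 in Col-0. It fell in 35S::RSL4 (log2 difference -0.70, limma adjusted p = 0.0093) and in rsl4-1 (-0.67, adjusted p = 0.016). Among all tested probe sets, 2.88% were called lower in 35S::RSL4 and 2.15% were called lower in rsl4-1, where 1.67% were called higher. Leaving out either rsl4-1 array ended the call for rsl4-1 (limma adjusted p = 0.054 without replicate 1, 0.16 without replicate 2). Leaving out either Col-0 array did so too (0.21 without replicate 1, 0.058 without replicate 2). For 35S::RSL4 the call was lost when its replicate 2 (0.07) or the first Col-0 array (0.16) was dropped. The summed signal of these 2 shoot genes was higher on both Col-0 arrays than on any array of either line. Of the 2, LHCB4.1 alone showed this by itself, and the other listed shoot loci could not be tested. The part of shoot signal in the values of the 81 was not tested.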

How the data were processed

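Total RNA of roots was biotin-labelled with an in vitro transcription kit and hybridised to 6 ATH1 arrays, per the labels' protocols. The authors deposited 1 intensity per probe set, on a linear scale. The submitters' processing notes name MAS5 and GCOS, and their versions are not given in the sources used here. Trimmed of its lowest and highest 2%, each array averaged 100.01, and that scaling was kept. Global scaling cannot show a change of total RNA, and MAS5 is noisy for dim probe sets.

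Of 22810 probe sets, 64 AFFX controls were left out. Gene names came from the platform annotation, which lists 1 gene for 13513 probe sets, several for 503 and none for 8730, updated through the RefSeq gene table of TAIR10.1. Of the 25 members with 1 gene, 24 were matched by gene number and 1 by locus. The values name no genome build, so no coordinates are given. Families to leave out were recognised by symbol or by a list of loci.

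Log2 signals of the 14170 probe sets above the 40th percentile on at least 2 arrays, which include all 81 members, entered a linear model in limma 3.58.1 and R 4.3.3 (lmFit and eBayes with an intensity trend, all 6 arrays). Adjusted p-values are two-sided with Benjamini-Hochberg adjustment over these probe sets, at a threshold of 0.05. The fit was tested on simulated data. With 2 arrays a group the smallest exact permutation p is 0.333, so that test was not used. Tables and figures were made with Python 3.11.15, pandas 2.3.3 and matplotlib 3.10.9. Folds were taken from mean log2 differences. Where several probe sets matched a listed gene, the brightest was used.

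The members and the gene lists were chosen with earlier results of these data known. The rule for naming took the largest differences, the highest signals and the edge of the selection, which gave 18 of the 25, and the other 7 were named so that each is accounted for. The planned searches of promoters and proteins and the grouping by gene description were not made, since no sequences or descriptions were used here. Alternatives were quantile normalization, median centring, other minimums, an offset, no filter, a fit without the trend, a fit on just the compared groups, a replicate block and leaving out each array. The values of 1 listed root hair gene are not reported here.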

Additional observations from a re-analysis of the deposited data

How the results depend on the processing

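The count of 81 changed by more than 1.5 times only with a signal minimum of 80 (52). With quantile normalization it was 86 and with median centring 93, each sharing 77 with the 81. Minimum differences of 0.3 and 0.5 gave 111 and 59, and leaving out each array gave 74 to 102, sharing 68 to 78. In all, 56 of the 81, and 15 of the 25 with 1 gene, met the criteria under both scalings and without each array in turn. The median log2 differences ran from 0.69 to 0.85 in 35S::RSL4 and from -0.90 to -0.77 in rsl4-1 over the scalings, the offset and the left-out arrays. Median centring put the median log2 difference of 35S::RSL4 over the 14170 tested probe sets at 0.046 in place of -0.065. It changed the calls over these probe sets to 889 higher and 233 lower in 35S::RSL4, against 480 and 408. In rsl4-1 it changed them to 323 higher and 261 lower, against 236 and 304. The planned searches of promoters, with their shorter window, were not run. The root hair list count stayed at 0 under each alternative run. It rests on 2 tested loci, or 3 with no filter on dim probe sets, so it says little about root hair genes. The single call among the other lists became 0 in rsl4-1 with no intensity trend, and lay between 0 and 1 in both comparisons when arrays were left out. The replicate numbers are not said to mark a shared batch, and deviations of same-numbered arrays correlated at 0.118 (35S::RSL4 with Col-0) and -0.189 (rsl4-1 with Col-0). With a replicate block the list counts were 0 and 1 as before. The calls over the tested probe sets were then 444 up and 358 down for 35S::RSL4 and 230 up and 290 down for rsl4-1. A block with the rsl4-1 numbers exchanged, chosen after seeing the data, also gave 0 and 1. Dim signals limit 20 of the 81 in rsl4-1.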

Other observations

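The 2 arrays of each line differed in how far the 81 probe sets stood from Col-0. In 35S::RSL4, 59 of the 81 (72.8%) had the higher signal in replicate 2, against 47.4% of all 14170 tested probe sets, and the median log2 difference of replicate 2 from replicate 1 was 0.16 for the 81 and -0.02 for all. In rsl4-1, 28 of the 81 (34.6%) were higher in replicate 2, against 50.6% of all tested, with a median of -0.13. In Col-0, 48 of the 81 (59.3%) were higher in replicate 2, against 48.8%, with a median of 0.02. Among the named genes, AT5G04960 and AT1G55290 were higher in 35S::RSL4 replicate 2, and AT2G38870 and AT3G18170 were higher in replicate 1. Why the arrays differ was not tested.

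The same criteria turned round, with rsl4-1 highest and 35S::RSL4 lowest, the signal minimum set on rsl4-1 and the same exclusions, were met by 20 probe sets, against 81 in the rising direction. For the criteria turned round, no count before the exclusions and none under another scaling is given here. The counts were not compared by a test. The annotation lists no gene for 67.9% of the 81, against 48.4% of the 10461 probe sets that reached the signal minimum outside the excluded families. Of the 22 probe sets set aside, only the single unnamed one had no gene listed, so the exclusions raised the share among the 81. The difference between these shares was not tested. Probe sets of types that can bind several transcripts were 6.17% of the 81 and 3.55% of the 10461.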
